A study of Mus musculus with 2 samples.

Results

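Hspa5, Hsp90b1, Pdia4, Dnajb9, Sdf2l1, Creld2, Herpud1, Xbp1, Atf4 and Ddit3 are 10 genes of the unfolded protein response, and they were followed across the epithelial cells of the mouse thymus. They were chosen by name, and all 10 were found among the 32285 genes listed for each library. Thymic epithelial cells, or TECs, support and educate developing T cells. Medullary TECs (mTECs) that express Aire, and the specialised cells they give rise to, display proteins that otherwise belong to other tissues. The study sequenced RNA from single cells of 1 library a group, titled Foxp1 KO (Cre+) and Foxp1 WT (Cre-). In both, thymi were broken up mechanically and with liberase and DNAse, TECs were enriched over a Percoll gradient, and live cells positive for the epithelial surface protein EPCAM were sorted. The genotype field of the labels reads KO for both libraries, so the titles and library names separate them. The sources used here do not give the Cre driver, the deleted part of Foxp1, how many mice were pooled, or their age and sex.

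The unfolded protein response answers a load of unfolded protein in the endoplasmic reticulum (ER). Its sensors in the ER membrane are IRE1, PERK and ATF6, which the chaperone BiP, made from Hspa5, binds while the load is low. Active IRE1 splices Xbp1 mRNA into the form that encodes a transcription factor, PERK favours translation of Atf4, whose protein induces Ddit3 (CHOP), and ATF6 is cut to release a factor that induces ER chaperones. The targets include chaperones and folding enzymes (Hspa5, Hsp90b1, Pdia4, Dnajb9, Sdf2l1, Creld2) and Herpud1, a membrane protein of ER-associated degradation, which removes misfolded proteins. Cells that make much secreted or membrane protein use this machinery without injury. The gene counts used here do not separate spliced from unspliced Xbp1 mRNA, and they hold no protein.

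The promoters of 4 members hold an ER stress element and are shown because these letters are the sites through which ATF6 and NF-Y are known to induce chaperone genes. Windows were taken from RefSeq on GRCm38.p6, from 250 bases before to 50 bases after each gene's start, and all 10 members had one. The classical element, named ERSE, was searched as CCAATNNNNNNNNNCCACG and ERSE-II as ATTGGNCCACG, on both strands. Hspa5 (chr2:34771840-34772089, plus strand), Hsp90b1 (chr10:86705445-86705694, minus strand) and Creld2 (chr15:88819396-88819645, plus strand) held ERSE, and Herpud1 (chr8:94386179-94386428, plus strand) held ERSE-II. The 250 bases before each start are printed 5′ to 3′ on the gene's strand, and capitals mark the letters of every motif found.
Hspa5: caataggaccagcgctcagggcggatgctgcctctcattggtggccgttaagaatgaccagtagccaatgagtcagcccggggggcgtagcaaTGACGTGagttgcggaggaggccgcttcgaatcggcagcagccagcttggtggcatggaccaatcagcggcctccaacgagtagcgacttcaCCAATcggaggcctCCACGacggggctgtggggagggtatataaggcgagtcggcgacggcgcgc
Hsp90b1: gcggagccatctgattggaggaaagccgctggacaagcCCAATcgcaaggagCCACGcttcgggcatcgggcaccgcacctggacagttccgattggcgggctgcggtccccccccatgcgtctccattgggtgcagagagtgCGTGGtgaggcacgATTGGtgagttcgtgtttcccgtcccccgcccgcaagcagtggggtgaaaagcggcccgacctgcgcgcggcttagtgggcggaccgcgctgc
Creld2: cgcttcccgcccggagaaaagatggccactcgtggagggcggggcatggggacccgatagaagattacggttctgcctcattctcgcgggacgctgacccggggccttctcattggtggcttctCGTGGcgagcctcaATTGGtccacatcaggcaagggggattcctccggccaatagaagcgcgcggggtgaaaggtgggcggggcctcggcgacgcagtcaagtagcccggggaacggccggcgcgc
Herpud1: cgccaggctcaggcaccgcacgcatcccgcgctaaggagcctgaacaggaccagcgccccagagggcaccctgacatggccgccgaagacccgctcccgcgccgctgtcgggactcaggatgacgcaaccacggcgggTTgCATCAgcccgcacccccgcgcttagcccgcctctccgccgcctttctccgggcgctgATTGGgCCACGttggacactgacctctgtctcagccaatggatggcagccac
Positions are counted from the RefSeq start. For Hspa5 and Hsp90b1 that start lies inside the gene as GENCODE draws it, and the ERSE of Hspa5 lies inside the GENCODE gene too. In Hspa5 the ERSE ran from 65 to 47 bases before the RefSeq start, and the TGACGTG letters further upstream are the core of the UPRE, the element that XBP1 is known to bind. Hsp90b1 held 2 copies of ERSE, 1 on each strand, and the Creld2 copy lay on the opposite strand. Beside its ERSE-II, Herpud1 held TGATGNAA, the core of the CARE element bound by ATF4 and its partners, on the opposite strand. Either ER stress element was found in 51 of 32817 windows, which is 0.155%, and in 4 of the 10 members. The members were chosen as known genes of this response, so that count is a description and not a test. ERSE alone was in 39 windows (0.119%), ERSE-II in 12 (0.0366%), the UPRE core in 660 (2.01%) and the CARE core in 1303 (3.97%), and none of the matches overlapped another within the members' windows. No match was found in the windows of Xbp1, Atf4, Ddit3, Dnajb9, Sdf2l1 and Pdia4, which says only that these letters are not in those bases. The RefSeq starts of Ddit3 and Dnajb9 also lie inside the GENCODE gene. For Dnajb9 all 250 bases before the RefSeq start lie inside it, so bases upstream of the GENCODE start were not searched.

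The deposited matrices held 4277 barcodes with 25233944 UMIs for the library labelled KO and 4957 barcodes with 33120715 UMIs for the library labelled WT, a UMI being a tag that marks 1 captured mRNA molecule. After filtering, 3265 and 3886 epithelial cells remained, with a median of 5218 and 6357.5 UMIs each, and 319 and 151 other cells, mostly endothelial-like, were left out. Levels are given as CPM, the UMIs of a gene per 1000000 UMIs of the cells it is taken over. Across all epithelial cells Foxp1 stood at 404 CPM in the library labelled KO, against 252 in the library labelled WT. That order goes against the labels, a count over the whole gene does not check the deleted part, and an overlapping gene on the same strand, Gm20705, shares its locus. The libraries are therefore named by their labels throughout. With 1 library a group there is no replicate check of any difference. Intervals are exact and at 95%, and they cover counting error only. They describe these libraries and not the genotypes, and 5 barcodes were shared by the libraries.

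Cells were clustered without the 10 members and without the other pathway genes, so the classes do not rest on them. Of 13 epithelial classes, 8 could be named from markers and 5 are given by their number. The Aire-stage mTEC-like class (344 cells in the library labelled KO, 541 in the library labelled WT) was marked by Aire, Cd80, Ubd, S100a8 and Pcp4, which are 5 of its 8 listed markers. The cycling class (273 and 314 cells) held 8 of 8 markers, the tuft-like class (265 and 509) 10 of 10 in its main cluster and 8 of 10 in a smaller one, the neuroendocrine-like class (170 and 158) 8 of 9, and the keratinocyte-like class (160 and 235) 9 of 10. The gut and liver-like class (63 and 97 cells) held 10 of 11, the microfold-like class (74 and 107) 7 of 7 beside 10 of the 11 gut and liver markers, and the ciliated-like class (42 and 29) 8 of 8. Cluster 0 (476 and 309 cells) matched 6 of 7 markers of Ccl21 mTECs, but its leading genes include the contractile genes Tagln and Acta2, so it keeps its number. Cluster 6 (392 and 608 cells) is led by Ccl22, Slamf7 and Nos2, cluster 4 (68 and 166) by kallikrein genes, cluster 9 (557 and 643) by Vit and cluster 11 (381 and 170) by Gm42418. Clusters 4, 9 and 11 are shallow, at median depths between 1680 and 3155 UMIs. CPM values here are totals over a class, which allows a gene to be compared between classes but not with another gene.

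Hspa5 (ENSMUSG00000026864, chromosome 2, 34771970 to 34777547), which encodes BiP, was highest in the Aire-stage mTEC-like cells of both libraries. There it stood at 836 CPM (interval 807 to 865) in the library labelled KO and at 979 (956 to 1002) in the library labelled WT. The next class had 560 in the library labelled KO, where it was gut and liver-like, and 664 in the library labelled WT, where it was cycling. In both libraries the Aire-stage interval stood apart from the next one. At the low end were the microfold-like cells of the library labelled KO (221) and cluster 11 of the library labelled WT (313). The highest class exceeded the lowest 3.78-fold and 3.13-fold. Of the 11 pairs of neighbours in that order, 9 in the library labelled KO and 10 in the library labelled WT had overlapping intervals, so the order within the middle is not resolved.

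Hsp90b1 (ENSMUSG00000020048, chromosome 10, 86690209 to 86705509, minus strand) encodes GRP94, the ER member of the Hsp90 family. Its level was 1282 (1247 to 1318) and 1367 (1340 to 1394) CPM in the Aire-stage mTEC-like cells of the libraries labelled KO and WT, and 1123 (1087 to 1160) and 1167 (1134 to 1201) in cycling cells. Those classes led in both libraries, and every other class with at least 50 cells was at or below 740 in the library labelled KO and 750 in the library labelled WT. Keratinocyte-like cells were the lowest in the library labelled KO at 373, and cluster 9 in the library labelled WT at 390. A short gene on the same strand, Gm15344, lies within Hsp90b1 and had 40 UMIs in all kept cells, against 46357 for Hsp90b1.

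Pdia4 (ENSMUSG00000025823, chromosome 6, 47796141 to 47813430, minus strand), a protein disulfide isomerase also known as ERp72, shared this pair of leading classes. Cycling cells had 259 and 256 CPM in the libraries labelled KO and WT, and Aire-stage mTEC-like cells had 244 and 267. Their intervals overlapped in each library, so which of the 2 classes leads is not resolved. The lowest levels were 83.2 in cluster 11 of the library labelled KO and 84.3 in cluster 4 of the library labelled WT, and tuft-like cells were also low, at 109 and 94.0.

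Sdf2l1 (ENSMUSG00000022769, chromosome 16, 17130138 to 17132383, minus strand), an ER protein that works with BiP and its co-chaperone Dnajb11, differed most between classes. Aire-stage mTEC-like cells had 179 (166 to 193) and 170 (160 to 180) CPM in the libraries labelled KO and WT, and cycling cells 137 and 135. Tuft-like cells had 31.2 and 32.1, and keratinocyte-like cells 40.4 and 33.2. In cluster 9 it had 12 and 15 UMIs in all, or 6.32 and 6.48 CPM, and in cluster 11 it had 2 UMIs and 1 UMI. Sec61b, a subunit of the channel that admits proteins to the ER, was also lowest there. It ranked 2 among the genes most like Sdf2l1 over these same classes, so its low level there is no separate evidence. It had 47.9 and 43.6 CPM in cluster 9 and 27.7 and 28.2 in cluster 11, against 540 and 576 in Aire-stage mTEC-like cells. For Sdf2l1 the highest class exceeded the lowest 61.3-fold and 60.2-fold, and the denominators rest on its few UMIs in cluster 11. The order of the 12 classes with at least 50 cells was nearly the same in both libraries (Spearman's rho 0.99).

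Creld2 (ENSMUSG00000023272, chromosome 15, 88819646 to 88826683), a secretory pathway protein induced by ER stress, followed a similar course. Its level was 102 (91.9 to 112) and 111 (103 to 119) CPM in the Aire-stage mTEC-like cells of the libraries labelled KO and WT, 63.0 and 70.2 in cycling cells, and 25.9 and 32.9 in tuft-like cells. Cluster 9 was lowest at 8.95 and 15.6. The Aire-stage interval stood apart from the next class in the library labelled KO only, since cluster 4 of the library labelled WT had 94.8 with a wide interval.

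Herpud1 (ENSMUSG00000031770, chromosome 8, 94386438 to 94395377) was also highest in the Aire-stage mTEC-like class, with 194 (180 to 208) and 221 (211 to 233) CPM in the libraries labelled KO and WT. The next classes, cluster 4 at 175 in the library labelled KO and gut and liver-like cells at 202 in the library labelled WT, overlapped it. Its lowest values were 48.2 and 28.2 in cluster 11. An antisense gene, Gm15890, overlaps its start and had 38 UMIs in all kept cells, against 8417 for Herpud1.

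Dnajb9 (ENSMUSG00000014905, chromosome 12, 44205559 to 44210326, minus strand) encodes ERdj4, a co-chaperone of BiP, and it departed from the other chaperones. Microfold-like cells, named after the antigen-sampling M cells of the gut, had 392 (331 to 460) and 490 (434 to 551) CPM in the libraries labelled KO and WT. The next highest class had 221 (gut and liver-like) in the library labelled KO and 195 (keratinocyte-like) in the library labelled WT, so microfold-like cells stood apart from every other class of at least 50 cells. At 2000 UMIs per cell this lead was lost in the library labelled KO, where Dnajb9 was seen in 34.9% of microfold-like cells (23.3 to 48.0) and in 41.8% of gut and liver-like cells (28.7 to 55.9). The same cells were in the lower part of the order for Hspa5, at 221 and 394, and for Pdia4, at 86.8 and 85.7. Cycling cells, near the top for Pdia4 and Hsp90b1, had 110 and 104 of Dnajb9.

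Among the transcription factors, Xbp1 (ENSMUSG00000020484, chromosome 11, 5520659 to 5525893) was highest in keratinocyte-like cells, at 234 (207 to 265) and 284 (260 to 310) CPM in the libraries labelled KO and WT. Neuroendocrine-like cells followed with 172 and 182, and gut and liver-like cells with 161 and 153. Aire-stage mTEC-like cells, which led for 5 of the 10 members, had only 50.1 and 74.3 of Xbp1, and cycling cells had 35.0 and 48.0. The order of the classes repeated between the libraries with a rho of 0.96.

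Ddit3 (ENSMUSG00000025408, chromosome 10, 127290774 to 127296288) encodes CHOP, which promotes cell death when stress persists. It was highest in gut and liver-like cells, at 109 (82.5 to 140) and 105 (83.3 to 131) CPM in the libraries labelled KO and WT, followed by microfold-like cells at 71.0 and 84.0, whose intervals overlapped. Cycling cells were lowest at 22.3 and 35.7. The symbol belongs to 2 identifiers in the files, and the second, which overlaps the first on the same strand, had 0 UMIs. Mars and Gm4189 overlap the ends of Ddit3 on the other strand.

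Atf4 (ENSMUSG00000042406, chromosome 15, 80255184 to 80257541), whose protein output is set mainly by translation, had another order again. It was highest in cluster 9, at 261 and 340 CPM in the libraries labelled KO and WT, and cluster 11 had 247 and 284. Sdf2l1 was lowest in those clusters. Among named classes, tuft-like cells led with 217 (197 to 239) and 299 (281 to 317), and neuroendocrine-like cells followed with 204 and 263. Cycling cells had 122 and 118, and Aire-stage mTEC-like cells 140 and 150.

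The ciliated-like class was too small to enter the order of classes, with 42 and 29 cells, and its levels are given as a description. Hsp90b1 had 1105 CPM in the library labelled KO and 759 in the library labelled WT, Hspa5 762 and 638, Pdia4 281 and 210, and Creld2 97.6 and 74.8. Xbp1 had 45.4 and 118, from 20 and 33 UMIs. A single ciliated-like cell of the library labelled KO held 128 of the 487 Hsp90b1 UMIs of its class.

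**Figure D1:**
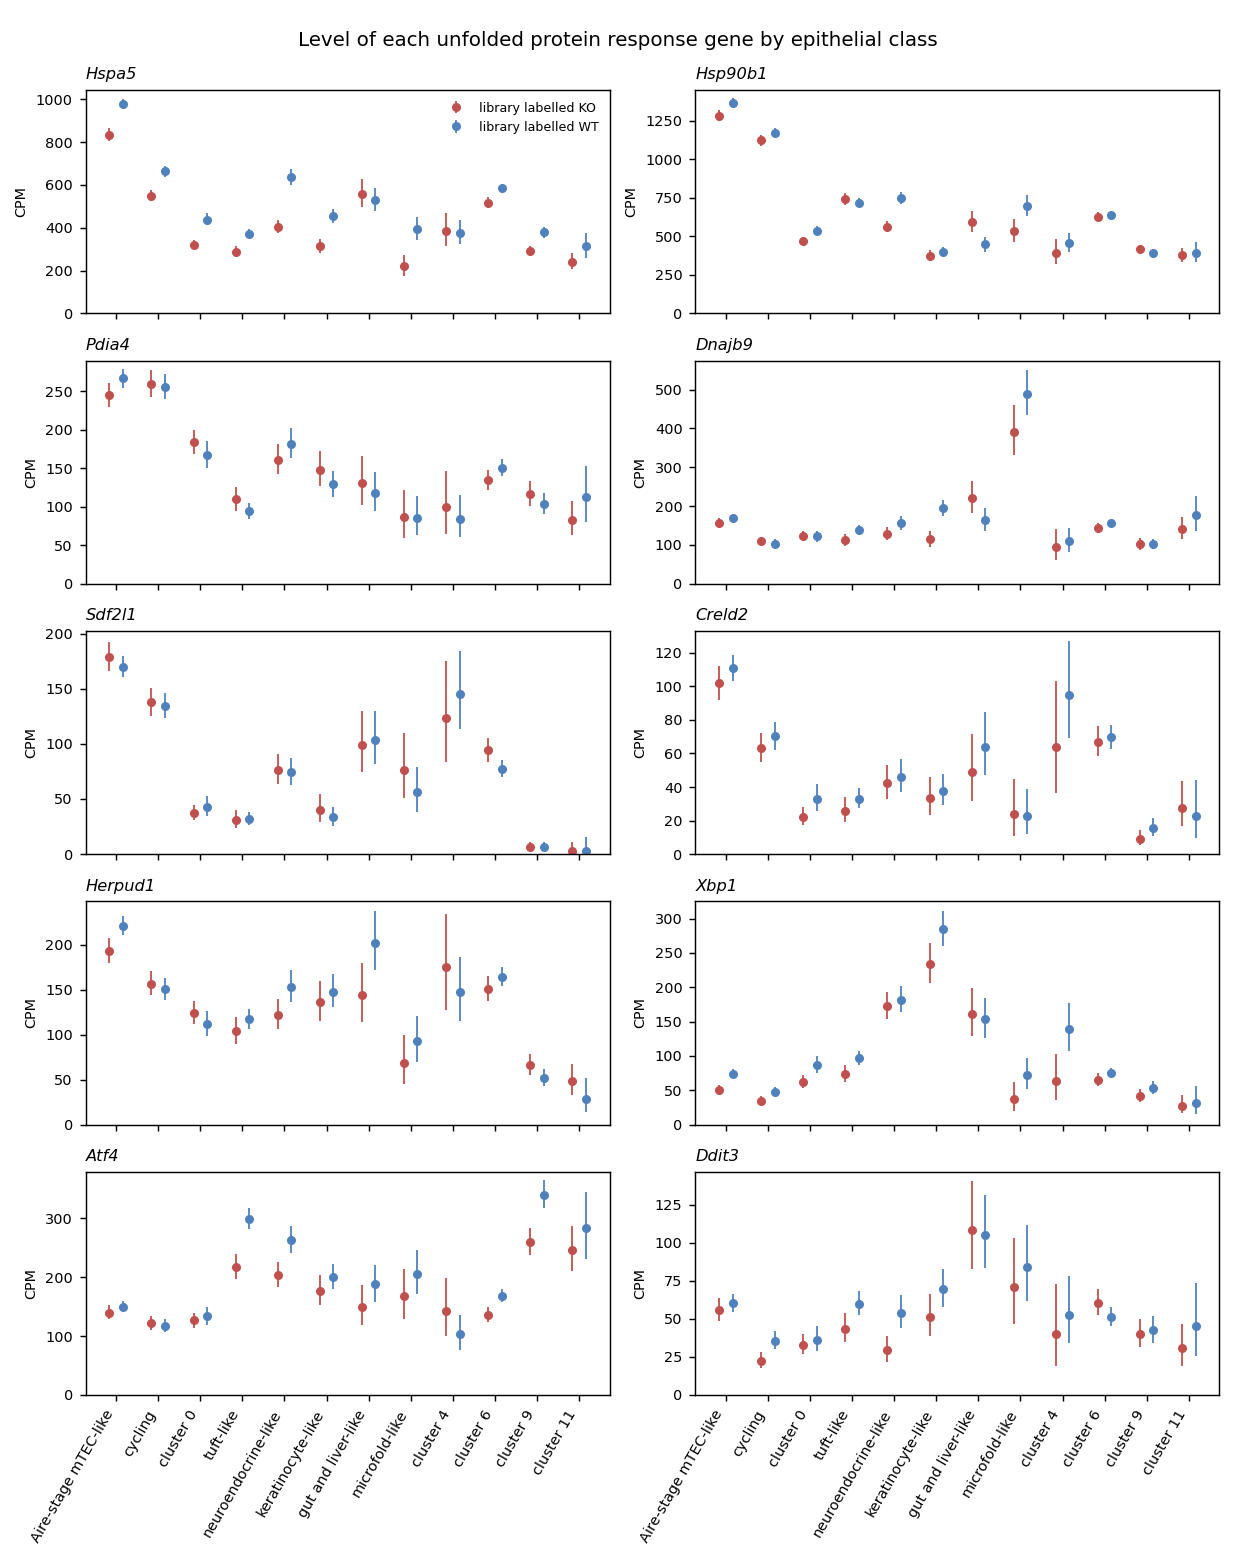
Level of each gene in CPM by epithelial class, for the 12 classes with at least 50 cells in each library; the library labelled KO is on the left of each pair in red and the library labelled WT on the right in blue, and bars are exact Poisson intervals at 95%. Hspa5, Hsp90b1, Sdf2l1, Creld2 and Herpud1 peak in the Aire-stage mTEC-like class of both libraries, Dnajb9 in microfold-like, Xbp1 in keratinocyte-like and Ddit3 in gut and liver-like cells.

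The members' profiles over classes fell into a group that moved together and several genes that did not. Over 24 points, each of 12 classes in each library, Pearson's r of the levels, as log2 of CPM plus 1, was 0.88 between Herpud1 and Sdf2l1, 0.80 between Sdf2l1 and Creld2, and 0.77 between Herpud1 and Creld2. Hspa5 followed Creld2 (0.75), Pdia4 (0.74) and Hsp90b1 (0.72). Ddit3 followed Dnajb9 (0.64). Atf4 ran opposite to Sdf2l1 (-0.74), Creld2 (-0.65) and Herpud1 (-0.62). Correlated with the mean profile of the 10 members, Hspa5 reached 0.86, Herpud1 0.82 and Sdf2l1 0.81, against 0.49 for Xbp1 and for Ddit3, 0.26 for Dnajb9 and -0.38 for Atf4. That mean includes the member itself, which raises each r, so these values do not compare with those of genes outside the members. These points share libraries and differ in depth. Across the same 24 points the r with the class's median UMIs per cell was 0.83 for Pdia4, 0.75 for Hspa5, 0.73 for Hsp90b1, 0.69 for Herpud1 and 0.63 for Sdf2l1, and near 0 for Dnajb9 (-0.01) and Ddit3 (0.06). The part of depth in these profiles was not tested.

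**Figure D2:**
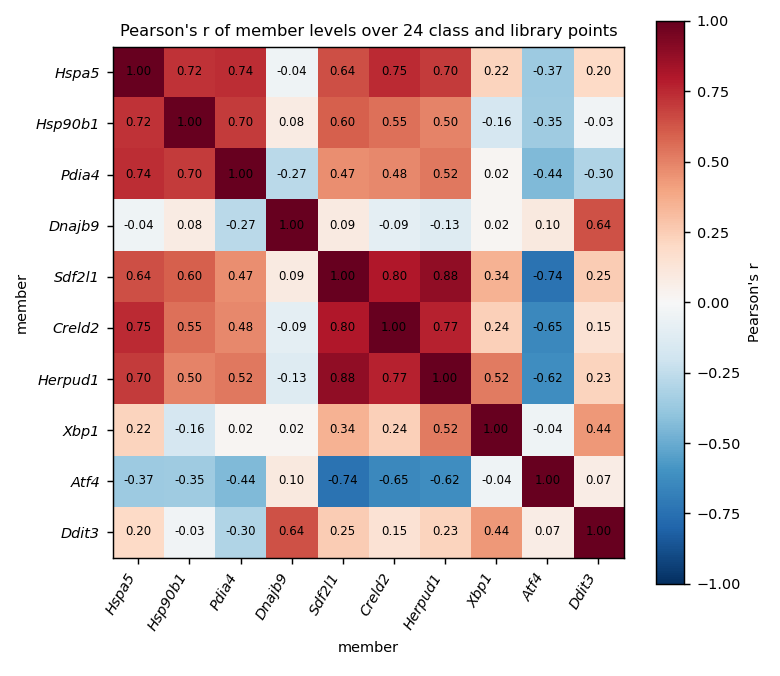
Pearson's r between the log2 levels of each pair of members over 24 points (12 classes in each of 2 libraries), as a colour from negative to positive. The block of Hspa5, Sdf2l1, Creld2 and Herpud1 is positive throughout, with 0.88 between Herpud1 and Sdf2l1, and Atf4 is negative with Sdf2l1 (-0.74).

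Profiles were correlated for 8030 genes, the 10 members among them. Outside the members, those most like the members' mean over the 24 points were Dnajb11 (r 0.86), an ER co-chaperone of BiP, Cdh9 (0.85), and Cfap299, Sorcs1 and Csrnp3 (0.84 each). They were followed at 0.83 by Cntnap2, Zfand6, Mucl2, Jagn1 and Selenos, of which Selenos takes part in ER-associated degradation. Of these 10, 2 were again among the first 10 when only the library labelled KO was used and 4 with only the library labelled WT, so most of the names depend on the library. Taken member by member, Sdf2l1 was most like Srp9 and Sec61b (0.96 each), parts of the machinery that brings new proteins into the ER. Pdia4 was close to Eif3c (0.88) and to the disulfide isomerase Pdia6 (0.87), and Hsp90b1 to Caap1 (0.89) and the chaperone Calr (0.87). The closest genes were Sirt1 and Snx29 (0.83 each) for Hspa5, Ggh and Sod2 (0.93 each) for Herpud1, and Emc8 and Gm14275 (0.93 each) for Creld2. For the remaining members they were Ccl6 and Ncoa4 (0.85 each) for Dnajb9, Cbr1 (0.86) and Ube2b (0.85) for Xbp1, Ccnl2 and Baz1b (0.94 each) for Atf4, and Hnf4g and Tapbp (0.84 each) for Ddit3. Hnf4g is also among the markers that named the gut and liver-like class, and Ccl6 is a leading gene of the microfold-like class.

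Cell by cell, most epithelial cells carried a modest load of member mRNA and a few carried far more. Among cells with at least 2000 UMIs, the 10 members together had a median of 1571 CPM in the library labelled KO and 1836 in the library labelled WT. In Aire-stage mTEC-like cells the medians were 2888 and 3079. Cells above 10000 numbered 12 of 2775 for the library labelled KO and 13 of 3457 for the library labelled WT. Of these, 7 and 5 were Aire-stage mTEC-like, among 342 and 537 cells of that class. Cluster 6 held 2 and 5, among 369 and 563 cells, and the ciliated-like class 2 and 0, among 41 and 28. The highest cell lay in cluster 6 of the library labelled KO, with 194 of its 4027 UMIs (4.82%) from the members. It held 71 UMIs each of Hspa5 and Hsp90b1, 35 of Pdia4, 6 of Sdf2l1, 5 of Creld2, 2 each of Herpud1 and Dnajb9, 1 each of Ddit3 and Atf4, and 0 of Xbp1. Outside the members it held 20 UMIs of Pdia3, 15 of Calr and 12 of Manf, all ER folding genes, with 12 UMIs of epithelial markers and 0 of plasma cell markers. The next cell, Aire-stage mTEC-like from the library labelled WT, held 258 of 12639 UMIs from the members, with 89 of Hsp90b1, 54 of Hspa5, 39 of Sdf2l1, 31 of Pdia4 and 24 of Herpud1. Xbp1 had 0 UMIs in each of the 5 highest cells.

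That highest cell alone supplied 8.08% of the Pdia4 and 4.27% of the Hspa5 UMIs of cluster 6 in the library labelled KO. Without it Pdia4 there was 124 CPM in place of 135, and Hspa5 495 in place of 517. Over the 369 cells of that class with at least 2000 UMIs, r between a member and the sum of the others was 0.91 for Hspa5, 0.85 for Hsp90b1 and 0.85 for Pdia4, and without that cell 0.74, 0.60 and 0.53. After each cell was thinned to 2000 UMIs, the median r over 18 groups of class and library was 0.25 for Hspa5, 0.20 for Hsp90b1 and 0.13 for Pdia4, and 0.19 for Sdf2l1 over the 17 groups where it had a value. The other members were below 0.1. In Aire-stage mTEC-like cells r was 0.43 in each library for Hspa5, and 0.41 and 0.39 for Hsp90b1 in the libraries labelled KO and WT. In neuroendocrine-like cells it was 0.37 and 0.49 for Hspa5. These values describe cells that share a library and hold few UMIs of each gene.

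**Figure D3:**
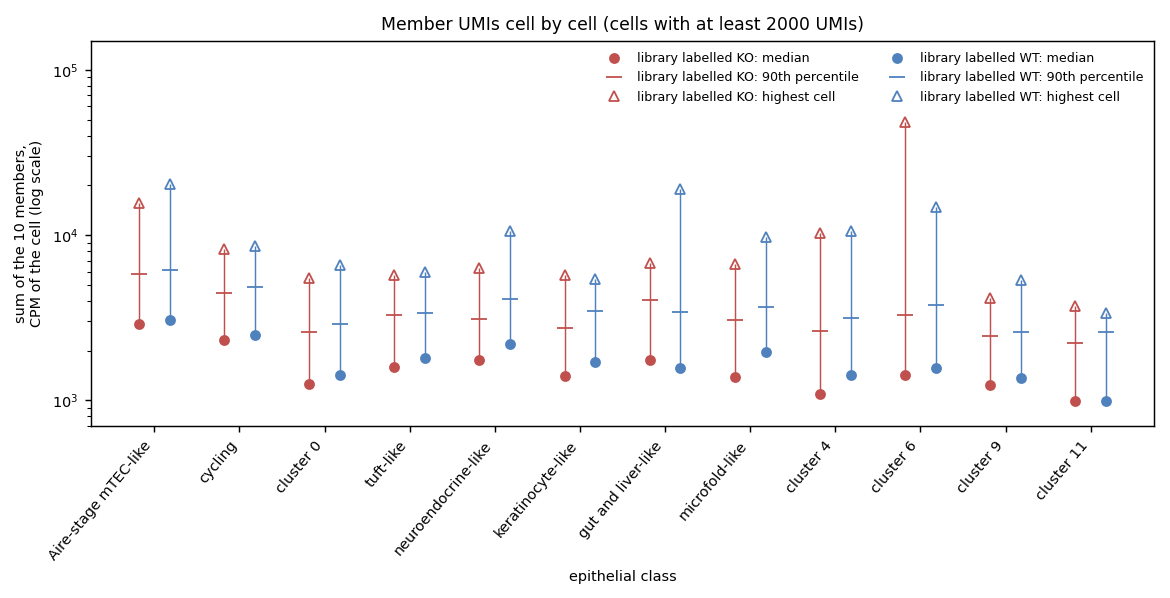
Summed CPM of the 10 members in each cell, on a log axis, by epithelial class for cells with at least 2000 UMIs; filled circles are medians, bars the 90th percentile and open triangles the highest cell, with the library labelled KO in red on the left and the library labelled WT in blue on the right. The Aire-stage mTEC-like class has the highest medians (2888 and 3079), and 1 cell of cluster 6 in the library labelled KO stands above all others at 48175.

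Between the libraries, 8 of the 10 members were lower over all epithelial cells of the library labelled KO by more than their counting interval, and Sdf2l1 and Pdia4 were not. The share of all genes lower by their interval is not given here, so that count has no background to be read against. The 10 genes together made up 2115 CPM in the library labelled KO and 2443 in the library labelled WT. Hspa5 stood at 484 CPM in the library labelled KO and 620 in the library labelled WT, and their log2 ratio was -0.36 (interval -0.39 to -0.32), which is 1.28-fold lower. Xbp1 had 73.2 and 94.5, a log2 ratio of -0.37 (-0.46 to -0.28) or 1.29-fold lower. A difference of 0.32 on the log2 scale was set as the size to call, and these were the 2 of 10 members past it, while 14% of all 16686 genes with enough counts were lower by that size and 11.8% were higher. With 2 of 10, the members' share is near that background. Among the 10928 genes with at least 500 UMIs, which include all 10 members, 8.96% were lower and 6.77% higher. The median log2 ratio was -0.21 over the members and -0.01 over all genes tested.

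The members short of that size kept to 1 side of 0 or straddled it. Ddit3 had 43.8 CPM in the library labelled KO and 53.4 in the library labelled WT (log2 ratio -0.29, -0.40 to -0.17). Creld2 had 52.5 and 63.7 (-0.28, -0.39 to -0.17), and Atf4 162 and 192 (-0.25, -0.31 to -0.19). Dnajb9 had 133 and 151 (-0.18, -0.25 to -0.11), Herpud1 137 and 154 (-0.16, -0.23 to -0.10), and Hsp90b1 763 and 844 (-0.15, -0.17 to -0.12). Pdia4 had 178 and 180 (-0.02, -0.08 to 0.04) and Sdf2l1 87.8 and 90.6 (-0.05, -0.13 to 0.04), with intervals that overlap between the libraries. The share of the classes differed between the libraries, Aire-stage mTEC-like cells making up 10.5% of the epithelium sampled for the library labelled KO and 13.9% for the library labelled WT. With the mixture of classes held at that of the library labelled WT, the log2 ratio of Hspa5 was -0.28, which is short of the size called, and Xbp1 alone was past it.

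Within classes the ratio of Hspa5 was below 0 in 10 of 12, with an interval below 0 in all 10. The width of an interval follows the number of UMIs. In neuroendocrine-like cells Hspa5 had 404 CPM in the library labelled KO and 636 in the library labelled WT (log2 ratio -0.66, -0.79 to -0.52). Keratinocyte-like cells had 312 and 455 (-0.54, -0.73 to -0.36), cluster 0 had 321 and 438 (-0.45, -0.58 to -0.32), and tuft-like cells 288 and 372 (-0.37, -0.52 to -0.23). In the small microfold-like class, with 84 and 225 UMIs, it had 221 and 394 (-0.83, -1.21 to -0.47). Aire-stage mTEC-like cells, with the most Hspa5, had a log2 ratio of -0.23 (-0.29 to -0.17) and cycling cells -0.27 (-0.36 to -0.18). The difference between classes was not tested. Gut and liver-like cells (560 and 530) and cluster 4 (386 and 375) were the exceptions, with overlapping intervals.

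Xbp1 had a ratio below 0 in 11 of 12 classes, with an interval below 0 in 7. Aire-stage mTEC-like cells had 50.1 CPM in the library labelled KO and 74.3 in the library labelled WT (log2 ratio -0.57, -0.81 to -0.33). That value depends on how the class is drawn, since it was -0.06 with cells typed by marker sums and -0.28 with every cell thinned to 2000 UMIs. Cluster 0 had 62.4 and 86.8 (-0.48, -0.77 to -0.18), cycling cells 35.0 and 48.0 (-0.46, -0.80 to -0.12), and tuft-like cells 72.9 and 96.2 (-0.40, -0.69 to -0.11). In neuroendocrine-like cells, where Xbp1 was abundant, the intervals overlapped at 172 and 182 (-0.08, -0.31 to 0.15). With every cell thinned to 2000 UMIs the ratio there was -0.50, and Xbp1 was seen in 25.9% of cells in the library labelled KO against 36.1% in the library labelled WT.

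Ddit3 had an interval below 0 in 3 of 12 classes and Atf4 in 4, with tuft-like and neuroendocrine-like cells among them for both. Atf4 was also lower in cluster 9, where its level was highest, with 261 CPM in the library labelled KO and 340 in the library labelled WT (log2 ratio -0.39, -0.55 to -0.22). Cluster 6 had 136 and 168 of Atf4 (-0.31, -0.48 to -0.14). In neuroendocrine-like cells Ddit3 had 29.5 CPM in the library labelled KO and 54.1 in the library labelled WT (log2 ratio -0.88, -1.39 to -0.38), from 51 and 105 UMIs, and Atf4 had 204 and 263 (-0.37, -0.57 to -0.17). In tuft-like cells Ddit3 had 43.3 and 59.99 (-0.47, -0.85 to -0.10), and Atf4 217 and 299 (-0.46, -0.63 to -0.30). Cycling cells had 22.3 and 35.7 of Ddit3 (-0.68, -1.10 to -0.26), while Atf4 there had 122 and 118 with overlapping intervals. In Aire-stage mTEC-like cells both straddled 0, Ddit3 at -0.12 (-0.36 to 0.12) and Atf4 at -0.10 (-0.25 to 0.05).

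Dnajb9 and Hsp90b1 each had an interval below 0 in 4 of 12 classes and above 0 in 1, and Herpud1 had an interval below 0 in 3. Dnajb9 had 115 CPM in keratinocyte-like cells of the library labelled KO and 195 in those of the library labelled WT (log2 ratio -0.76, -1.07 to -0.47). It was also lower in microfold-like (-0.32), tuft-like (-0.29) and neuroendocrine-like cells (-0.29). In gut and liver-like cells its order turned round, with 221 and 164 CPM (0.43, 0.05 to 0.81). Hsp90b1 had 562 and 750 in neuroendocrine-like cells (-0.42, -0.54 to -0.30), and its ratio was -0.39 in microfold-like cells, -0.18 in cluster 0 and -0.09 in Aire-stage mTEC-like cells. In gut and liver-like cells it had 592 and 448 (0.40, 0.18 to 0.63). Shares of cells with a UMI at 2000 UMIs per cell did not repeat that order for Hsp90b1, which was seen in 45.5% of gut and liver-like cells labelled KO and 49.4% of those labelled WT, with overlapping intervals. Creld2 had 22.2 and 33.02 in cluster 0 (-0.57, -1.07 to -0.07). Herpud1 had 122 and 154 in neuroendocrine-like cells (-0.33, -0.59 to -0.07), with -0.49 in gut and liver-like and -0.19 in Aire-stage mTEC-like cells. Sdf2l1 was never lower by its interval in any of the 12 classes and was higher in cluster 6, with 94.3 and 77.3 (0.29, 0.07 to 0.50), and Pdia4 was lower by its interval only in Aire-stage mTEC-like cells, with 244 and 267 (-0.13, -0.24 to -0.01).

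In the classes with at least 100 cells in each library, most of the members past the size called were lower in the library labelled KO, and Herpud1 in cluster 9 was higher. In Aire-stage mTEC-like cells 1 of 10, Xbp1, was lower and 0 were higher, where 17.8% of all genes tested were lower and 14.3% higher by that size. Cycling cells had 2 lower, Xbp1 and Ddit3, against backgrounds of 15.5% lower and 10.6% higher. Cluster 0 had 3 lower, Hspa5, Xbp1 and Creld2, against 13% lower and 11.4% higher. Tuft-like cells had 5 lower, Hspa5, Xbp1, Ddit3, Atf4 and Creld2, against 13.7% lower and 12.5% higher, and neuroendocrine-like cells had 5 lower, Hspa5, Ddit3, Atf4, Herpud1 and Hsp90b1, against 14.4% lower and 12.1% higher. Keratinocyte-like cells had 3 lower, Hspa5, Ddit3 and Dnajb9, against 20.6% lower and 14.1% higher. Cluster 6 had 0 past the size, against 16.3% lower and 11.8% higher. In cluster 9, 3 of 8 members with enough counts were lower (Hspa5, Xbp1, Atf4) and 1 was higher (Herpud1), against 13.6% lower and 14.8% higher, and in cluster 11, 2 of 4 were lower (Hspa5, Dnajb9), against 14.3% lower and 17.7% higher.

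Over the named classes with at least 100 cells in each library, the median log2 ratio of the members ran from -0.02 in cycling cells and -0.12 in Aire-stage mTEC-like cells to -0.31 in neuroendocrine-like and -0.32 in tuft-like cells. The gut and liver-like class, where Dnajb9 and Hsp90b1 were higher, is too small to be among them. Of 50 pairs of a member and such a class, 16 were past the size on the lower side, 14 of them with an interval below 0, and 0 on the higher side. By class, 13.7% to 20.6% of all genes tested were lower and 10.6% to 14.3% higher by that size. The share of all genes that also had an interval below 0 is not given here. The same member can count in several classes. With 1 library a group the classes of a library are not replicates of one another.

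**Figure D4:**
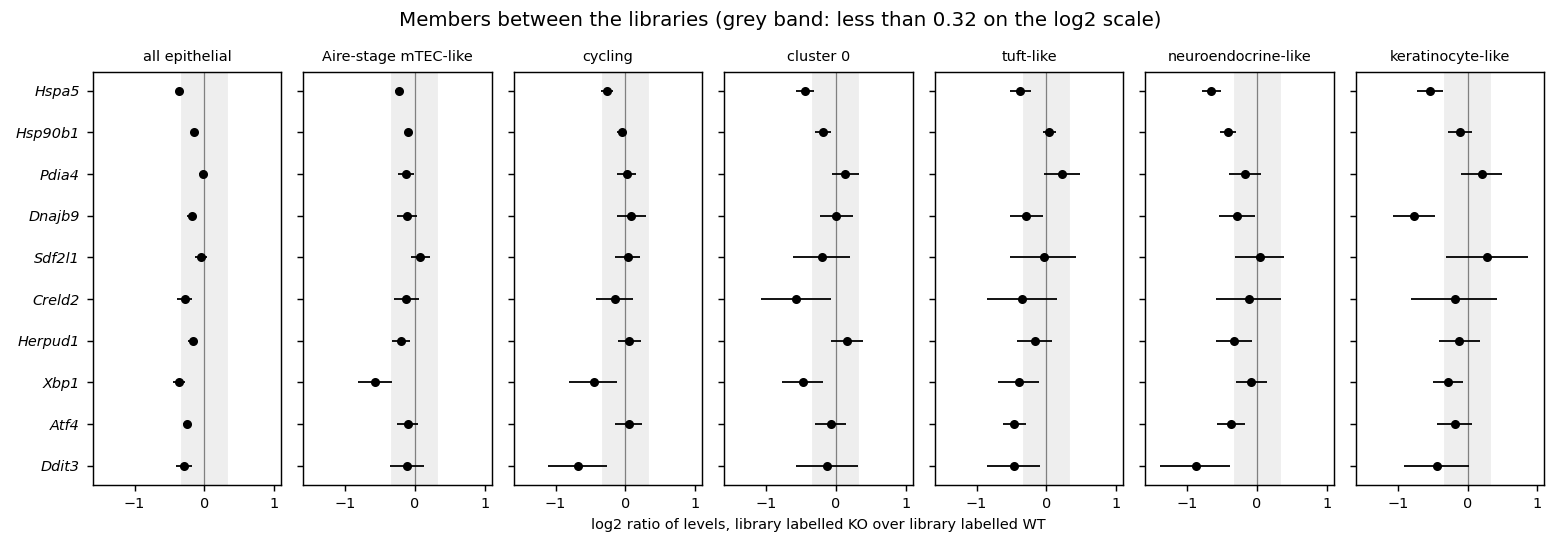
Log2 ratio of levels, library labelled KO over library labelled WT, for each member in all epithelial cells and in 6 classes with at least 100 cells in each library; points are the ratios, bars their exact intervals at 95% and the grey band differences under 0.32. Hspa5 lies left of 0 in all 7 panels, from -0.23 in Aire-stage mTEC-like to -0.66 in neuroendocrine-like cells, while Pdia4 and Sdf2l1 stay within the grey band in every panel.

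Shares of cells with a UMI gave the same order for most members at equal depth. With each cell thinned to 2000 UMIs, which left out 490 and 429 shallower cells, Hspa5 was seen in 47.5% of cells (45.6 to 49.3) of the library labelled KO and in 54.8% (53.1 to 56.4) of the library labelled WT. Xbp1 was seen in 11.7% (10.5 to 12.9) and 15.3% (14.1 to 16.5). Without thinning the shares were 67.8% and 75.8% for Hspa5 and 27.6% and 35.8% for Xbp1. The interval of the share ratio lay below 0 on the log2 scale for 6 of 10 members, Hspa5, Xbp1, Ddit3, Atf4, Hsp90b1 and Creld2. At 1000 UMIs per cell, which keeps all cells, it did so for 5, and Hsp90b1 was seen in 39.7% of cells of each library. The share of all genes with such an interval is not given here, so these counts have no background. No cell type is known to lack these genes, so free RNA in the droplets was not tested as a background for these shares.

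Most of the wider pathway stayed within the size called. Of 47 further genes in 5 lists, 46 had enough counts over all epithelial cells, of which 4 were lower and 1 higher in the library labelled KO by the size called, with a median log2 ratio of -0.08. Both counts are below the shares of 14% and 11.8% over all genes. Among genes with at least 500 UMIs those shares were 8.96% and 6.77%, and the pathway genes were not counted at that minimum. Among 14 chaperones and folding enzymes 2 were lower, Hyou1, a large ER chaperone that exchanges nucleotide on BiP, with 46.7 CPM in the library labelled KO and 62.6 in the library labelled WT (log2 ratio -0.42, -0.53 to -0.32), and the oxidase Ero1lb with 175 and 224 (-0.36). Of 9 genes of ER-associated degradation 1 was lower, the ubiquitin ligase Syvn1, with 20.1 and 28.1 (-0.48). Of 14 targets of the PERK-ATF4 arm, Chac1 was lower with 1.61 and 3.09 (-0.94, -1.54 to -0.37) and the serine synthesis enzyme Psat1 was higher with 13.4 and 8.81 (0.60, 0.36 to 0.84). No gene passed the size in either direction among the 4 sensors with enough counts, whose median was -0.12, or among the 5 translocation genes, whose median was 0.02. Syvn1 is one of 7 pathway genes whose promoter window holds an ER stress element, of 37 found in the table, and the others are Calr, Canx, Pdia6, Dnajb11, Dnajc3 and Derl3.

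In Aire-stage mTEC-like cells 4 of 45 pathway genes were lower and 2 higher, which are smaller shares than the 17.8% and 14.3% of all genes in that class. Of the sensors, Eif2ak3 and Ern1 were among those lower. Eif2ak3, which encodes PERK, had 31.8 CPM in the library labelled KO and 55.8 in the library labelled WT (log2 ratio -0.81, -1.12 to -0.52), and Ern1, which encodes IRE1, had 26.6 and 38.4 (-0.53, -0.87 to -0.20). Hyou1 had 49.0 and 70.3 (-0.52) and the BiP co-chaperone Dnajc3 61.2 and 82.6 (-0.43). On the higher side were Atf5, a transcription factor of the integrated stress response, with 133 and 91.9 (0.54, 0.37 to 0.71), and Edem2 with 27.1 and 18.1 (0.58). In cycling cells 6 of 42 pathway genes were lower and 2 higher, where 15.5% and 10.6% of all genes were. Cluster 0 had 7 and 1 of 38 (13% and 11.4% of all genes), and tuft-like cells 7 and 5 of 41 (13.7% and 12.5%). Neuroendocrine-like cells had 3 and 3 of 38 (14.4% and 12.1%), keratinocyte-like cells 9 and 7 of 36 (20.6% and 14.1%), and cluster 6 had 5 and 0 of 41 (16.3% and 11.8%).

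**Figure D5:**
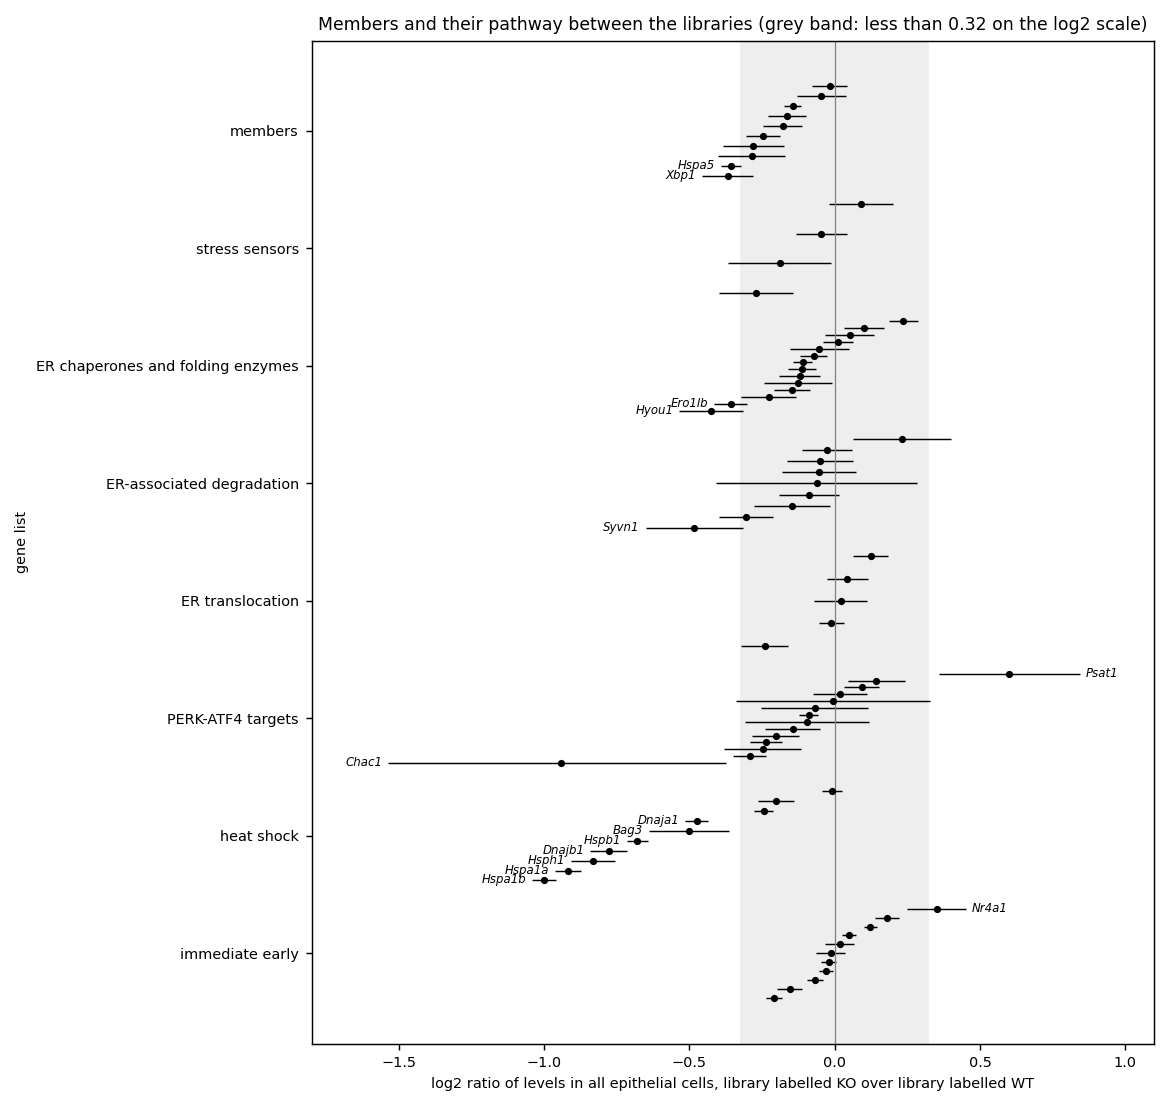
Log2 ratio of levels over all epithelial cells, library labelled KO over library labelled WT, for the members, 5 lists of pathway genes, heat shock genes and immediate early genes; each point is a gene with its exact interval at 95%, the grey band holds differences under 0.32, and genes past it are named. Most pathway genes lie in the band around a median of -0.08, whereas 7 of 10 heat shock genes lie to its left, against 14% of all genes tested.

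Other quantities also differed between the libraries. The 10 cytosolic heat shock genes, which answer unfolded protein outside the ER, summed to 2729 CPM in the library labelled KO and 3896 in the library labelled WT over all epithelial cells. Of these 10 genes, 7 were lower by the size called, against 14% of all genes tested, with a median log2 ratio of -0.59. All 10 had the lower level in the library labelled KO, and the sum was lower there in 12 of 12 classes. The share of all genes lower or higher by any amount is not given here. This count and those of the lists below therefore have no background where they go by side alone. The classes come from the same libraries and are not replicates of one another. Hspa1a and Hspa1b among them are near-identical copies. In neuroendocrine-like cells, where Hspa5 differed by -0.66, the heat shock sum was 2175 and 4443. In Aire-stage mTEC-like cells, where Hspa5 differed by -0.23, it was 2185 and 2904. The classes given here are examples, and how the heat shock sum and the Hspa5 ratio go together over classes was not tested. Gut and liver-like cells, where Hspa5 differed by 0.08, had heat shock sums of 1889 and 3269. Cluster 6, where Hspa5 differed by -0.18, had 2300 and 3585. The 11 immediate early genes summed to 7039 and 7069 over all epithelial cells, and in 10 of 12 classes the library labelled KO had the lower sum. In Aire-stage mTEC-like cells it was 4048 and 5004, with 11 of 11 genes lower, 5 of them past the size called, and a median log2 ratio of -0.32. In that class 17.8% of all genes tested were lower by the size called. Plasma cells use this pathway heavily, and their 5 markers summed to 13.8 CPM in the library labelled KO and 19.8 in the library labelled WT within the epithelial cells, each of the 5 being lower in the library labelled KO, with Igha at 0 there. By class their sum ran from 0 to 39.0 in the library labelled KO and from 0 to 48.5 in the library labelled WT. The 6 endothelial markers summed to 70.2 and 48.8 and all were higher in the library labelled KO, with classes from 23.7 to 91.9 and from 22.7 to 87.3. Of the 6 myeloid markers, which summed to 378 and 322, 4 were higher, and of the 7 thymocyte markers, at 33.5 and 34.3, 2 were higher. Of the 6 fibroblast markers, at 58.5 and 51.2, 4 were higher. Median depth per cell was also lower in the library labelled KO. The part of these differences in the members' differences was not tested.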

How the data were processed

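The deposited files give, for each barcode, the raw count of UMIs of every gene; per the file headers Cell Ranger 7.0.1 wrote them, and Cell Ranger, Seurat and mm10 appear in the submitters' processing notes. The sources used here do not give whether intronic reads were counted or which rule chose the barcodes, and the shallowest barcode had 500 UMIs. Kept cells had 500 or more genes, 1000 or more UMIs and a mitochondrial share of no more than 10%, which left 3584 cells (83.8% of barcodes) for the library labelled KO and 4037 (81.4%) for the library labelled WT. Cells were clustered with scanpy 1.11.5 on 3000 variable genes, 30 principal components and 15 neighbours at a Leiden resolution of 1, giving 18 clusters, which were named from marker lists by thresholds set after the clusters were seen. A doublet caller marked 0 cells and was taken not to have worked. UMIs were summed per class and library. Intervals at 95% are exact Poisson for levels, conditional binomial for ratios, Clopper-Pearson for shares and Katz for share ratios, and cover counting error only. A difference was called at 0.32 on the log2 scale for genes with at least 100 UMIs over both libraries. With 1 library a group no p-value is given. The ratios and their intervals were tested on simulated class sums that held counting error only, and the other steps were not tested in that way. The members and lists were chosen with earlier results of these data known. All members are named, the pathway genes named are those past the size called, and likeness names the first 10 genes for the mean profile and the first 2 for each member. Gene positions are those of GENCODE vM21 on GRCm38.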

Additional observations from a re-analysis of the deposited data

Results flagged for a closer look

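Members with opposite directions in different classes call for a closer look. Dnajb9 had a log2 ratio of library labelled KO over library labelled WT of -0.76 in keratinocyte-like cells and of 0.43 in gut and liver-like cells, with intervals on opposite sides of 0. Hsp90b1 had -0.42 in neuroendocrine-like cells and 0.40 in gut and liver-like cells. In the gut and liver-like class, 63 cells came from the library labelled KO and 97 from the library labelled WT. In shares of cells with a UMI, these gut and liver-like values were not steady. Hsp90b1 was seen in 45.5% and 49.4% of cells of the libraries labelled KO and WT at 2000 UMIs per cell, and in 27.0% and 24.7% at 1000. Dnajb9 was seen in 41.8% and 26.5% at 2000, and in 12.7% and 16.5% at 1000. All 4 intervals of the share ratio included 0. These differences between classes were not tested, since there is 1 library a group.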

How the results depend on the processing

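The 2 members lower by 0.32 or more on the log2 scale over all epithelial cells became 4 with equal weight per cell, 1 with the mixture of types held at the library labelled WT, and 0 at 1.5-fold, where 5.69% of all genes were lower; without clusters 4, 9 and 11, an alternative chosen after seeing the data, the count was 2. The 16 pairs of member and named class past it on the lower side became 8 of 34 with a minimum of 500 UMIs, where 7.83% to 17% of all genes were lower by class, and 4 at 1.5-fold, where 4.28% to 7.15% were. The 0 pairs on the higher side became 1 with a stricter cell filter, with the members in the clustering, with cells typed by marker sums, with median-of-ratios scaling and with cells thinned to 2000 UMIs. Creld2 in tuft-like cells turned to 0.16 when thinned, against -0.35. Thinning moved 22 single ratios of a member and class beyond their interval and left 37 within it, and typing by marker sums moved 15 and left 45. The cause of these changes was not tested. The named class with the highest level changed for Hsp90b1 in the library labelled KO to cycling with marker sums, and for Dnajb9 there to gut and liver-like when thinned. Ddit3 was highest in microfold-like cells of both libraries at resolution 0.5, and in keratinocyte-like cells of the library labelled WT at resolution 2 and with marker sums. Pdia4 was highest in cycling cells of both libraries at resolution 0.5 and with the members in the clustering. No paired analysis was possible because each group is 1 library. At their depth the shallow clusters 9 and 11 held 8 and 4 members with enough UMIs, and no library could be left out.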
